A study of Mus musculus with 2 samples.

Results

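The RNA levels of 10 genes of the nuclear arm of Wnt signalling were followed in the optic nerve: the TCF/LEF factors *Tcf7l2*, *Tcf7*, *Tcf7l1* and *Lef1*, their coactivators *Ctnnb1* (β-catenin) and *Bcl9*, and the Groucho corepressors *Tle1*, *Tle2*, *Tle3* and *Tle4*. They were taken by symbol, as 10 of 23905 symbols found in either expression table, and each had 1 row of its own in both tables. RNA was sequenced from optic nerves of mice at postnatal day 12, with 1 library from control animals (genotype Tcf7l2 c/+ with OLig1-cre) and 1 library from mutant animals (Tcf7l2 c/c with OLig1-cre, called *Tcf7l2*ΔHMG). Both groups therefore carried the Cre driver and at least 1 floxed allele, so the control is heterozygous and not wild type. Mice of the study were of both sexes and on a mixed background. *Olig1*-Cre acts in the oligodendrocyte (OL) lineage, and other cells of the nerve are not targeted by design. How many animals went into each library is not given in the sources used here.

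TCF/LEF proteins bind DNA through a high mobility group (HMG) box. Without Wnt input they recruit TLE corepressors and hold target genes silent, and stabilized β-catenin displaces TLE and brings in BCL9 and Pygopus to switch the same targets on. *Tcf7l2* is the member best known from differentiating OLs, and the optic nerve is a tract that is being myelinated at this age.

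The short stretches below lie upstream of RefSeq starts in GRCm38.p6 and are shown because the comparison turned on *Tcf7l2* and *Tcf7l1*. Capitals mark the TCF/LEF core, written CTTTG or, on the opposite strand, CAAAG, and each run reads from 5′ to 3′ along the gene.

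*Tcf7l2*, start at 55741810 (chr19:55741687-55741716, plus strand): tctcccggcgccCAAAGgatcattgttggc

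*Tcf7l2*, start at 55895321 (chr19:55895291-55895320, plus strand): caaacaaaatatcaggCTTTGttcttttga

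*Tcf7l1*, start at 72789045 (chr6:72789056-72789085, minus strand): gccctgtcaaaaCTTTGtcgccgcagcggc

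The core lay 111 and 14 bases before the starts of *Tcf7l2* and 28 bases before that of *Tcf7l1*. Searched on both strands in the 250 bases before every RefSeq start, it was present in 7 of the 17 windows of the 10 genes, which belonged to *Tcf7l2*, *Tcf7l1* and *Lef1*. Of all 32851 windows, 48.6% held it, so a match is common. The longer CTTTGT, which overlaps the core and is also a core read by SOX factors, was in 3 of the 17 windows and in 16.5% of all windows. CTTTGAT, closer to the full TCF/LEF site, was in 0 of the 17 and in 3.21% of all.

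Values are FPKM, fragments scaled by transcript length and by the library's mapped total, so genes can be compared with each other. Each value comes with a Cufflinks interval, given in brackets, which covers the counting of fragments within 1 library and not the variation between animals. The files hold no fragment totals. The interval bounds of short unnamed rows were whole multiples of 1 fragment at depths of 27609000 to 27638000 fragments in the control and 39918000 to 39957000 in the mutant, so the control values rest on fewer fragments. With 1 library per genotype there was no replicate, no difference could be tested and no p-value is given. A log2 ratio sets the mutant over the control after 0.1 was added to both FPKM values, which understates ratios of low genes, and the range after it is the widest that both intervals allow. For the 10 genes all 20 values lay inside their own interval, but for some other genes, such as *Mbp* and *Hdac1*, they did not, and there the interval is no guide.

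The floxed gene itself was measured in both libraries. *Tcf7l2*, on chromosome 19 from 55816300 to 56008145 in mm9, stood at 17.8 FPKM [16.7 to 18.9] in the control and 14.6 FPKM [13.9 to 15.4] in *Tcf7l2*ΔHMG. It was lower in the mutant, with a log2 ratio of −0.28 (−0.44 to −0.12), and the intervals did not overlap. The allele removes the exon for the HMG box and leaves the rest of the transcript. A value for the whole gene therefore does not show how much of that exon was lost and does not check the genotype. Fragments of the removed exon can also be missing from the mutant value, and their part in the difference was not tested. Inside the span of *Tcf7l2*, unnamed rows of 366 and 488 bases held 2.45 FPKM (control) and 0.882 FPKM (mutant), and are not part of its values. In whole nerve, fewer cells of a type and less RNA per cell cannot be told apart.

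*Tcf7l1*, whose product acts mainly as a repressor of Wnt targets, differed in the opposite direction. It lies on chromosome 6 from 72576365 to 72739039 and stood at 10.05 FPKM [9.22 to 10.9] in the control and 14.9 FPKM [14.0 to 15.9] in the mutant. The log2 ratio was 0.57 (0.36 to 0.78), a 1.48-fold difference, and the intervals did not overlap. Of the 10 genes this was the highest ratio, and 16.1% of the 14199 genes compared, those with at least 1 FPKM in at least 1 library and called tested genes from here on, had a higher one. A second annotated gene inside its span, *Gm15401*, was listed at 0 in both libraries.

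*Tcf7*, which encodes TCF1, and *Lef1* were the lower pair of the family, and the intervals of each overlapped between the genotypes. *Tcf7*, on chromosome 11 from 52065827 to 52096476, was at 5.67 FPKM [4.85 to 6.45] in the control and 5.68 FPKM [5.12 to 6.24] in the mutant. Its log2 ratio of 0.00 had a range of −0.33 to 0.36. An unnamed row of 291 bases inside the span of *Tcf7* held a further 3.94 FPKM in the control alone, and whether it took fragments of *Tcf7* was not tested. *Lef1*, on chromosome 3 from 130813215 to 130927275, was at 2.71 FPKM [2.28 to 3.13] and 2.84 FPKM [2.32 to 3.36], a log2 ratio of 0.07 (−0.42 to 0.54). At this depth a difference of *Lef1* within these bounds was not detectable. T cells also express *Tcf7* and *Lef1*, and the T-cell markers *Cd3d*, *Cd3e*, *Cd3g*, *Cd8a* and *Lck* summed to 1.40 FPKM in the control against 2.43 FPKM in the mutant, with none of the 5 reaching 1 FPKM in either library.

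**Figure D1:**
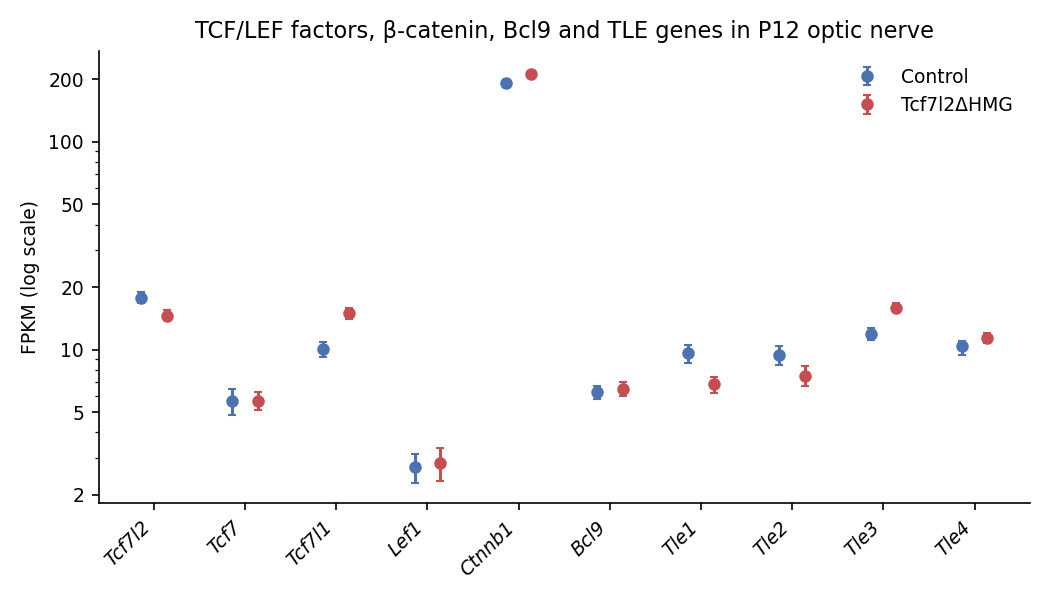
FPKM (log axis) of the 10 genes in the control library (blue) and the *Tcf7l2*ΔHMG library (red), with bars for the Cufflinks interval within each library. *Ctnnb1* lies far above the other 9, and *Tcf7l1* and *Tcf7l2* meet near 15 FPKM in the mutant.

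The composition of the family can be read within each library, where no scaling between libraries enters. In the control, *Tcf7l2* made up 49.1% of the summed TCF/LEF FPKM (44.98% to 53.6% over the intervals), *Tcf7l1* 27.8% (24.5% to 31.3%), *Tcf7* 15.7% and *Lef1* 7.48%. In the mutant, *Tcf7l2* made up 38.3% (35.3% to 41.8%) and *Tcf7l1* 39.3% (35.9% to 42.7%), while *Tcf7* stood at 14.9% and *Lef1* at 7.46%. The share of *Tcf7l2* was thus below, and that of *Tcf7l1* above, the range of the control. For each FPKM of *Tcf7l2* there were 0.565 FPKM of *Tcf7l1* in the control (0.489 to 0.650) and 1.02 in the mutant (0.907 to 1.14).

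The sum over the 4 factors differed little, from 36.2 FPKM [33.1 to 39.3] in the control to 38.0 FPKM [35.3 to 40.9] in the mutant. This sum, the shares above and the ratios to it below count *Tcf7l2* RNA with and without the exon for the HMG box. They do not show how much of the TCF/LEF RNA encoded a factor able to bind DNA, in the mutant above all. Without *Tcf7l2*, the other three summed to 18.4 FPKM [16.4 to 20.5] and 23.4 FPKM [21.4 to 25.5], and these ranges did not overlap. Nearly all of that difference of the other three was that of *Tcf7l1*, which was higher by 4.88 FPKM, beside 0.0064 FPKM for *Tcf7* and 0.131 FPKM for *Lef1*. Whether both factors were in the same cells is not shown by RNA of whole nerve.

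**Figure D2:**
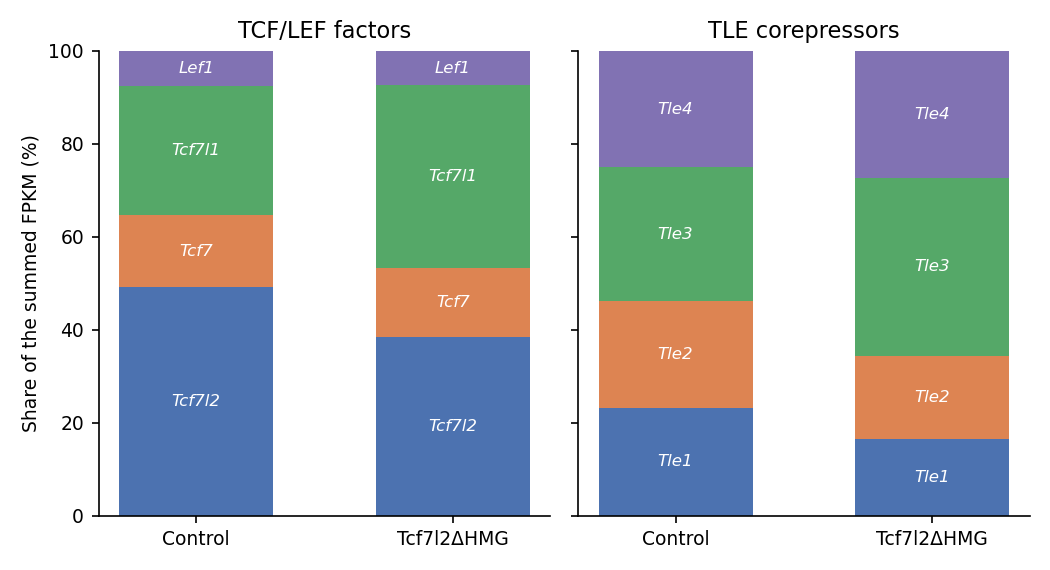
Share of the summed FPKM (%) taken by each TCF/LEF factor (left) and each TLE corepressor (right) in the control and *Tcf7l2*ΔHMG libraries, 1 library each and no error bars. *Tcf7l2* takes 49.1% of its family in the control against 38.3% in the mutant, while *Tle3* takes 28.8% and 38.2% of its own.

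Among the coactivators, β-catenin RNA was by far the most abundant of the 10 genes. *Ctnnb1*, on chromosome 9 from 120842518 to 120869625, was at 193.0 FPKM [191.6 to 199.3] in the control and 212.5 FPKM [211.5 to 218.9] in the mutant. The intervals did not overlap, but the log2 ratio was 0.14 (0.09 to 0.19) and 41.6% of tested genes had a higher one. It amounted to 5.33 FPKM for each FPKM of TCF/LEF RNA in the control (4.87 to 6.03) and 5.59 in the mutant (5.17 to 6.20), ranges that overlapped. β-catenin is also a junction protein that is controlled through its stability, so its RNA does not report on signalling. *Bcl9*, which links β-catenin to Pygopus, was at 6.24 FPKM [5.77 to 6.71] and 6.47 FPKM [5.95 to 7.01], and these intervals overlapped. Its row ran from 97007585 to 97031287 on chromosome 3 in the control and on to 97101946 in the mutant, so the assemblies of the libraries differed at this gene.

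The TLE corepressors, which bind TCF/LEF factors in the absence of β-catenin, were present as all 4 full-length members at similar levels in the control, from 9.44 to 11.9 FPKM. In the mutant they spread to between 6.80 and 15.8 FPKM. *Tle3*, on chromosome 9 from 61220173 to 61266304, was at 11.9 FPKM [11.1 to 12.6] in the control and 15.8 FPKM [15.1 to 16.7] in the mutant, a log2 ratio of 0.41 (0.26 to 0.58). *Tle1*, on chromosome 4 from 71770979 to 71861945, was at 9.58 FPKM [8.61 to 10.5] and 6.80 FPKM [6.19 to 7.41], a log2 ratio of −0.49 (−0.76 to −0.21). *Tle3* was therefore the higher and *Tle1* the lower in the mutant, and for neither did the intervals overlap.

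*Tle2*, on chromosome 10 from 81038032 to 81053590, was at 9.44 FPKM [8.42 to 10.3] in the control and 7.48 FPKM [6.64 to 8.32] in the mutant. Its intervals were apart by a small margin, with a log2 ratio of −0.33 (−0.63 to −0.02). In the mutant assembly an unnamed row of 289 bases inside the span of *Tle2* held a further 4.72 FPKM, and no such row was present in the control. Whether that row took fragments of *Tle2* was not tested. *Tle4*, on chromosome 19 from 14522562 to 14672473, was at 10.3 FPKM [9.43 to 11.0] and 11.3 FPKM [10.7 to 11.99], and these intervals overlapped.

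The total of the 4 TLE genes was 41.2 FPKM [37.6 to 44.5] in the control and 41.5 FPKM [38.6 to 44.4] in the mutant. Within it, *Tle3* took 28.8% (25.9% to 32.3%) of the control sum and 38.2% (35.3% to 41.5%) of the mutant sum, and *Tle1* took 23.2% (20.2% to 26.7%) and 16.4% (14.3% to 18.6%). For each FPKM of *Tle1* there was 1.24 FPKM of *Tle3* in the control (1.05 to 1.47) and 2.33 in the mutant (2.04 to 2.70). Set against the factors they bind, there was 1.14 FPKM of TLE for each FPKM of TCF/LEF in the control (0.955 to 1.34) and 1.09 in the mutant (0.945 to 1.26), ranges that overlapped.

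In the control, *Ctnnb1*, *Tcf7l2* and *Tle3* were the top of the order and each stood apart from the next gene by its interval. *Tle4*, *Tcf7l1*, *Tle1* and *Tle2* followed without separation between neighbours, then *Bcl9* and *Tcf7*, also not separated, and *Lef1* last. In the mutant, *Ctnnb1* was again first, and *Tle3*, *Tcf7l1* and *Tcf7l2* followed with intervals that overlapped from each to the next. *Tle4* stood apart below them, *Tle2*, *Tle1*, *Bcl9* and *Tcf7* were not separated from their neighbours, and *Lef1* was again last. *Tcf7l2* thus held place 2 in the control and place 4 in the mutant. The median FPKM of all tested genes was 9.62 in the control library and 9.96 in the mutant library. *Tcf7l2* lay above it in both, with 31.4% and 38.0% of tested genes higher, and *Lef1* lay well below it, with 82.0% and 83.2% higher.

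By the 1.5-fold cutoff that the study used for its RNA-seq, 0 of the 10 genes were higher in the mutant, where 15.4% of all 14199 tested genes were, and 0 of the 10 were lower, where 8.52% of all were (23.9% in either direction). With non-overlapping intervals asked for as well, the counts were again 0 and 0, beside 13.6% and 7.42% of all. *Tcf7l1*, at 1.48-fold, was the nearest to the cutoff. All 10 genes passed the filter of 1 FPKM in at least 1 library. By intervals that did not overlap, *Tcf7l1*, *Tle3* and *Ctnnb1* were higher on the deposited scale (3 of 10, beside 30.0% of all tested genes) and *Tcf7l2*, *Tle1* and *Tle2* lower (3 of 10, beside 22.3%). The 6 of 10 in either direction stood beside 52.4% of all tested genes, so these shares are close to the background. The median log2 ratio was 0.06 over the 10 genes and 0.05 over all tested genes, and percentiles 5 and 95 of all genes were −0.83 and 1.18.

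Scale bears on direction. Rescaling all rows of each library, unnamed ones included, to a common sum moved the median log2 ratio of all tested genes from 0.05 to −0.61 and put all 10 genes below 0, with *Tcf7l1* at −0.10 and *Tcf7l2* at −0.95. Relative to that median, *Tcf7l1* was at 0.51, *Tle3* at 0.35, *Tcf7l2* at −0.34, *Tle2* at −0.38 and *Tle1* at −0.53, close to the values relative to the median without rescaling (0.52, 0.37, −0.33, −0.38 and −0.54). The same rescaling changed the calls over all genes from 2185 higher and 1210 lower to 640 higher and 7398 lower. The direction of *Tcf7*, *Lef1* and *Bcl9* also depended on which rows were used for scaling, and none is claimed for them.

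**Figure D3:**
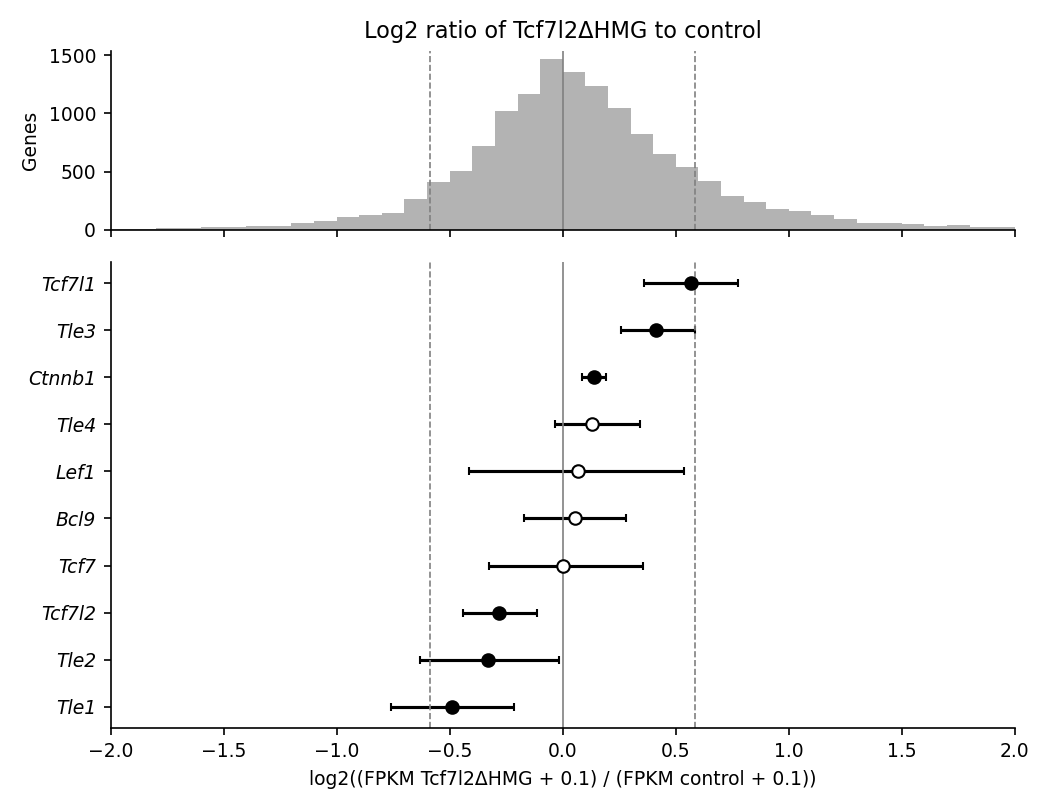
Top, number of tested genes by log2 ratio of *Tcf7l2*ΔHMG to control, drawn between −2 and 2. Bottom, the 10 genes on the same axis, with bars for the widest range the Cufflinks intervals allow and filled points where the intervals did not overlap. Dashed lines mark a fold of 1.5, and all 10 points lie between them on the deposited scale.

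Other genes of the same machinery were listed by role, 43 in all, and each passed the same filter. Past the 1.5-fold cutoff, 4 of the 43 were higher (9.30%, beside 15.4% of all genes) and 1 was lower (2.33%, beside 8.52%). Of the 4, *Pygo1* had a row merged with a neighbouring gene in the mutant. Another, *Cdh5*, lay below the cutoff once the median of all genes was subtracted. The median log2 ratio over the 43 genes was 0.11. The intervals did not overlap for 21 genes that were higher (48.8%, beside 30.0% of all genes) and 10 that were lower (23.3%, beside 22.3%), on the deposited scale. Among these calls, those of *Gsk3a* (higher), *Hdac2* and *Ctnna1* (lower) rest on values outside their own interval. With all rows rescaled, 3 of the 43 were above 0.

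The coactivators held the paralogs of the Bcl9 and Pygopus pair. *Bcl9l* was at 4.998 FPKM [4.61 to 5.38] in the control and 7.998 FPKM [7.62 to 8.47] in the mutant, a log2 ratio of 0.67 (0.49 to 0.86). Its paralog *Bcl9* was the higher of that pair in the control and the lower in the mutant. *Pygo1* was at 4.06 FPKM [3.13 to 4.67] in the control and 9.06 FPKM [7.77 to 9.55] in the mutant (log2 ratio 1.14), but in the mutant its row was merged with the neighbouring gene *Dyx1c1*. In the control the separate rows of *Pygo1* and *Dyx1c1* summed to 5.29 FPKM, so part of the difference may belong to the neighbour. *Pygo2* was at 17.2 FPKM [16.0 to 18.3] and 15.6 FPKM [14.7 to 16.5], with overlapping intervals. Of the 11 coactivators, 6 were higher with intervals apart on the deposited scale, *Pygo1* with its merged row among them, and 0 lower. The shares of all genes were 30.0% and 22.3%, and the median log2 ratio over the 11 was 0.23. With all rows rescaled, 2 of the 11 were above 0 and 9 below, with a median of −0.43.

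Of the 15 nuclear inhibitors found, 6 were higher and 6 lower with intervals apart, *Hdac2* among the latter, beside 30.0% and 22.3% of all genes. The median log2 ratio was 0.09. *Nlk*, a kinase that phosphorylates TCF/LEF factors, was at 12.7 FPKM [11.8 to 13.6] in the control and 6.83 FPKM [6.22 to 7.29] in the mutant, and its log2 ratio of −0.88 (−1.11 to −0.69) was the only one of the 15 past the cutoff. *Ctnnbip1*, whose product keeps β-catenin from TCF/LEF factors, was at 21.1 FPKM [19.8 to 22.5] and 16.7 FPKM [15.7 to 17.8] (log2 ratio −0.33). *Zbtb33*, which encodes the repressor Kaiso, was at 5.61 FPKM [5.16 to 6.05] and 4.15 FPKM [3.82 to 4.48] (log2 ratio −0.42).

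The short Groucho relatives were far apart in level. *Aes*, whose product lacks the WD repeats of the full-length TLE proteins, was at 198.4 FPKM [194.0 to 206.5] in the control and 240.0 FPKM [236.3 to 248.7] in the mutant (log2 ratio 0.27), above the sum of the 4 full-length *Tle* genes in both libraries. *Tle6* was at 3.36 FPKM [2.75 to 3.96] and 4.02 FPKM [3.01 to 4.54], with overlapping intervals.

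In the destruction complex, which marks β-catenin for degradation, 5 of 10 genes were higher, *Gsk3a* among them, and 1 was lower with intervals apart, beside 30.0% and 22.3% of all genes. Past the cutoff were 0 of the 10, beside 15.4% and 8.52% of all. *Axin2*, a scaffold of the complex and a common readout of Wnt activity, was at 9.42 FPKM [8.74 to 10.1] in the control and 12.5 FPKM [11.8 to 13.2] in the mutant. Its log2 ratio was 0.40 on the deposited scale and −0.26 with all rows rescaled, where 0 of the 10 genes were above 0. Relative to the median of all tested genes, *Axin2* was at 0.36 and 0.35 on these scales. Of 7 junction partners of β-catenin, 4 were higher and 3 lower with intervals apart, beside 30.0% and 22.3% of all genes. Those lower were *Cdh2* (log2 ratio −0.28), *Ctnna1* (−0.14, a value outside its own interval) and *Ctnna2* (−0.12). Past the cutoff, 2 were higher and 0 lower, beside 15.4% and 8.52% of all. Of these 2, *Cdh1* (E-cadherin) was at 13.3 FPKM [12.2 to 13.8] and 25.5 FPKM [23.8 to 25.7], a log2 ratio of 0.94. *Cdh5* (VE-cadherin of endothelium) was at 20.9 FPKM [19.8 to 22.1] and 31.6 FPKM [30.6 to 33.0], a log2 ratio of 0.59, barely past the cutoff of 0.58 and below it once the median of all genes was subtracted (0.54).

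**Figure D4:**
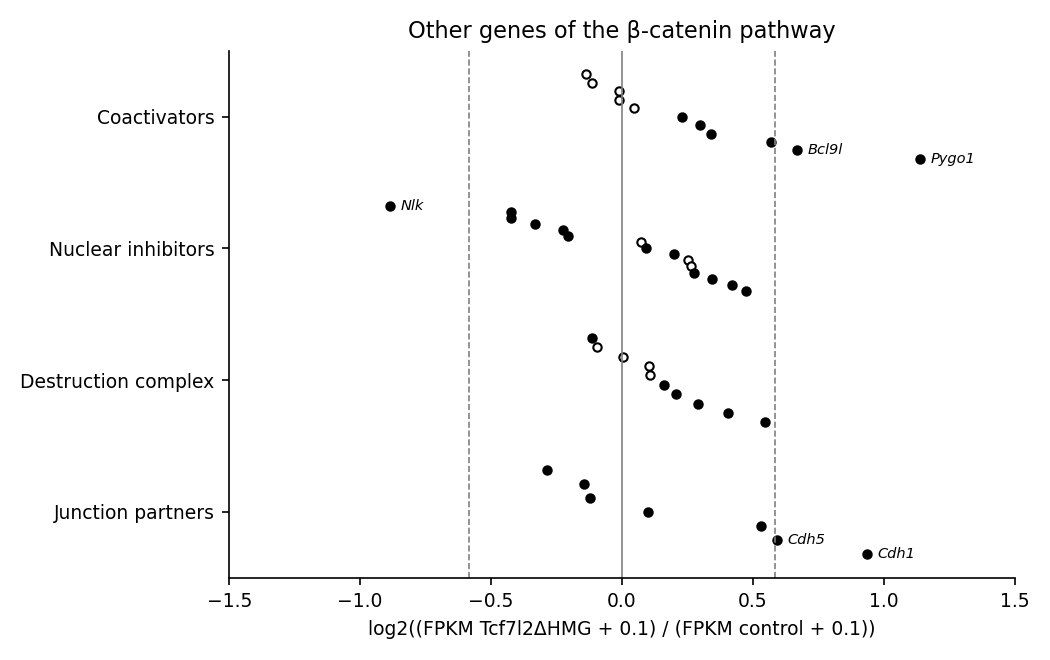
Log2 ratio of *Tcf7l2*ΔHMG to control for 43 further genes of the β-catenin pathway, grouped by role, 1 point per gene and filled where the Cufflinks intervals did not overlap. Dashed lines mark a fold of 1.5, and 5 genes, *Bcl9l*, *Pygo1*, *Cdh1*, *Cdh5* and *Nlk*, lie beyond them on the deposited scale. The mutant row of *Pygo1* is merged with *Dyx1c1*, and *Cdh5* lies barely past the line.

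Markers of the cell types in the nerve also differed between the libraries. They are counted here by value alone over every listed gene, since for several of them, such as *Mbp* and *Gfap*, the value lay outside its own interval. As background on the deposited scale, 54.4% of tested genes had a log2 ratio above that of *Tcf7* (0.00) and 45.6% one below. With all rows rescaled, the median of all tested genes was −0.61, so most genes count as lower there. Whether any list departs from this background was not tested. Mature OL markers summed to 30503 FPKM in the control against 17581 FPKM in the mutant, with 8 of 8 lower and a median log2 ratio of −0.82. Markers of premyelinating OLs, the stage at which *Tcf7l2* is best known, summed to 754.8 and 475.9 FPKM, with 4 of 4 lower. Their log2 ratios ran from −1.91 (*Tmem2*) to −0.21 (*Itpr2*), with a median of −0.74. OL precursor markers summed to 338.6 and 271.6 FPKM, with 3 of 4 lower and 1 higher (*Ptprz1*, log2 ratio 0.36) on the deposited scale. With all rows rescaled, 0 were higher. *Gpr17*, at 235.0 and 155.8 FPKM, made up most of both sums, and without it the mutant sum is the higher one on the deposited scale. *Pdgfra*, counted as lower, was at 35.9 FPKM [35.1 to 38.0] and 33.6 FPKM [32.0 to 161.1], with overlapping intervals.

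Meningeal fibroblast markers summed to 857.4 FPKM in the control against 1232 FPKM in the mutant, with 6 of 6 higher on the deposited scale (median log2 ratio 0.58) and 3 of 6 with all rows rescaled. Astrocyte markers summed to 5100 and 6027 FPKM, with 6 of 7 higher and 1 lower on the deposited scale, and 1 higher with all rows rescaled. Microglia markers summed to 103.3 and 119.5 FPKM, with 5 of 6 higher and 1 lower on the deposited scale (*Aif1*, 11.7 and 8.73 FPKM), and 0 higher with all rows rescaled. Neuron markers summed to 20.3 and 34.5 FPKM, with 4 of 5 higher, while *Pou4f1* was at 0.776 FPKM in the control against 0.153 FPKM in the mutant.

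Endothelial markers, which bear on *Lef1* because brain endothelium expresses it, summed to 114.7 and 84.2 FPKM, with 5 of 6 lower and 1 higher. The one that was higher on the deposited scale was *Flt1*, and *Cdh5*, an endothelial gene not on that list, was higher too. Pericyte and smooth muscle markers summed to 100.9 and 121.5 FPKM, with 4 of 5 higher on the deposited scale and 1 with all rows rescaled, but *Tagln* was listed at 0 in the control and at 35.3 FPKM in the mutant, and without it the mutant sum is the lower one. No marker of the other lists was at 0. The part of these cell types in the values of *Tcf7l2*, *Tcf7l1*, *Tle1* and *Tle3* was not tested.

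**Figure D5:**
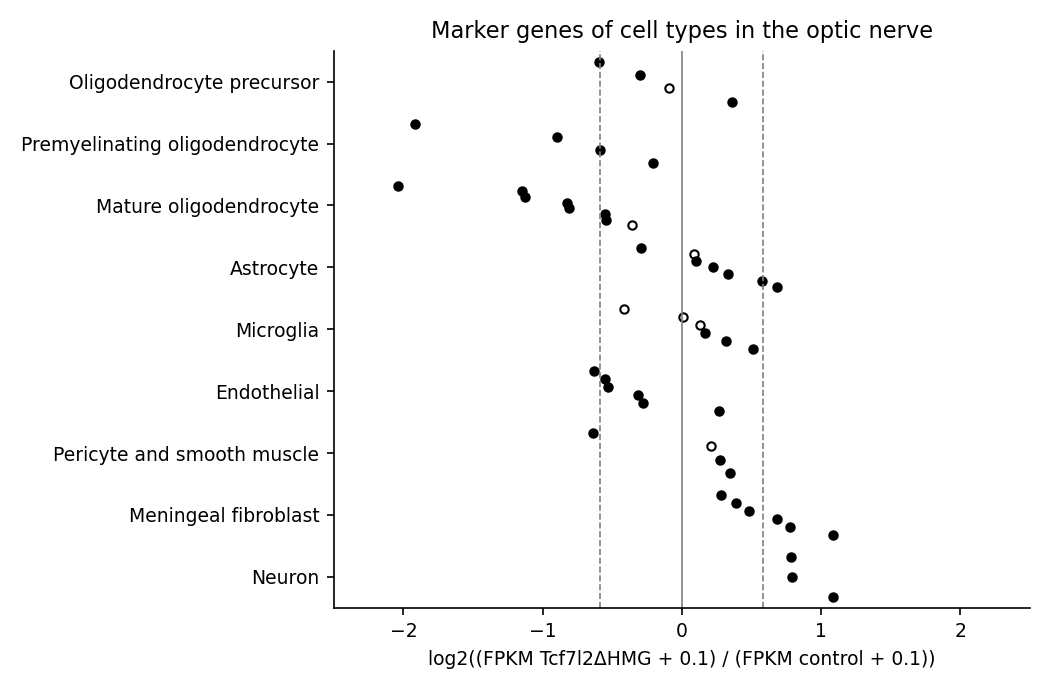
Log2 ratio of *Tcf7l2*ΔHMG to control for marker genes of 9 cell types, 1 point per gene that passed the filter and filled where the Cufflinks intervals did not overlap. Mature and premyelinating OL markers lie below 0 and, on the deposited scale, meningeal fibroblast markers above it. *Tagln*, listed at 0 in the control, is not drawn.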

How the data were processed

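RNA from optic nerves of control and *Tcf7l2*ΔHMG mice was sequenced on an Illumina instrument, with 1 library per genotype. The authors mapped reads with TopHat at default settings and deposited Cufflinks FPKM with the bounds of its interval, and the build in the submitters' processing notes is mm9. Versions are not given in the sources used here. Assembly was made per library, so row boundaries can differ.

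Comma-merged names were split and rows summed per symbol, keeping symbols whose rows had status OK in both libraries. Genes with at least 1 FPKM in at least 1 library were compared and are called tested genes (14199 of 23853). Depth was taken as the smallest total at which all interval bounds of unnamed rows under 100 bases, up to 20 fragments, were within 0.01 of a whole number of fragments (27609000 to 27638000 in the control, 39918000 to 39957000 in the mutant), where 3 fragments on 1 kb give 0.109 and 0.0751 FPKM. The Cufflinks intervals cover counting error only. Unnamed rows held 70.7% and 80.7% of the summed FPKM.

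No statistical test was run, and the lists are described by counts beside all genes. The 10 genes and all lists were chosen with earlier results of these data known. Named were the 10 genes, *Bcl9l*, *Pygo1*, *Pygo2*, *Aes*, *Tle6*, *Ctnnbip1*, *Zbtb33*, *Axin2* and pathway genes past a fold of 1.5 with intervals apart. Of the listed symbols, *Tle5*, *Fam123b* and *Tmem10* had no row, and *Aes*, *Amer1* and *Opalin* are other names of the same genes. With 2 libraries no genes of like pattern were named. The alternatives were pseudocounts of 1 and 0.01, subtracting the median, a common 75th percentile, sums of 1000000 over all or named rows, the highest row per symbol, unmerged rows, rows of any status, a fold of 2, non-overlapping intervals, no filter and a filter of 5 FPKM. Sequences are from RefSeq (GRCm38.p6), in which all 10 genes had an entry. The functions were tested on simulated data. Python 3.11.15, numpy 2.4.6, pandas 2.3.3 and matplotlib 3.10.9 were used.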

Additional observations from a re-analysis of the deposited data

How the results depend on the processing

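Rescaling all rows to a sum of 1000000 was the one alternative that moved the summaries. It put 5 of the 10 genes lower by more than 1.5-fold, in place of 0, beside 7398 of all 14199 tested genes. The median log2 ratio over the 10 genes was then −0.58, in place of 0.06, beside −0.61 over all tested genes. The construction of this rescaling shows why, since unnamed rows, whose share differed between the libraries, enter the sum. Under the other 12 alternatives run for the counts, 0 genes were higher and 0 were lower. With no filter, the calls over all genes were 3207 higher and 1644 lower, and with a fold above 2 they were 975 and 522. With at least 5 FPKM they were 1290 and 889. The shares of *Tcf7l2* and the TLE to TCF/LEF ratios were identical under the highest row per symbol, unmerged rows and rows of any status, because each of the 10 genes has 1 unmerged row of status OK. Of the 10 single log2 ratios, all 10 left their interval range when all rows were rescaled and 1 did when named rows were (*Ctnnb1*, 0.07). No paired analysis was possible because there was 1 library per genotype, and no library could be left out. Depth limits *Lef1* most, whose interval range was the widest of the 10.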
